A study of Drosophila melanogaster with 16 samples.

Results

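The comparison set the testis of bgcn mutant adults of Drosophila melanogaster beside the wild-type testis, on 5 arrays titled bgcn and 5 titled wild-type, 10 of the 16 arrays in the series. The labels describe dissected whole adult testes, 750 for each bgcn sample and 150 for each wild-type sample, and call the replicates biological. Neither the bgcn allele, the wild-type strain nor the age of the males is given in the sources used here, and number of testes cannot be told apart from genotype. In every wild-type sample the extraction text speaks of bgcn testes, against its title, source and description, and the groups here follow the titles. The other 6 arrays, of bgcn mutants with Os (outstretched, an older name of upd1), supplied in a way the sources used here do not give, entered the shared estimate of error.

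In the Drosophila testis, germline stem cells attached to the somatic hub divide to give gonialblasts, which a pair of somatic cyst cells encloses. Each gonialblast divides synchronously as spermatogonia, then becomes a cyst of primary spermatocytes, which transcribe most genes needed later, and after meiosis the spermatids elongate and individualize into sperm. bgcn (benign gonial cell neoplasm) encodes a DExH-box-related protein that works with the product of bam (bag of marbles) to end the spermatogonial divisions. Germ cells that lack either gene keep dividing as spermatogonia and do not become spermatocytes. The comparison therefore asked which transcripts differ between a testis of dividing early germ cells and one that holds all stages.

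The values were MAS5 signals, a linear measure of hybridization per probe set. Their trimmed mean was 148.4 to 149.3 on every array, so the deposited values share a common scale of that kind. Differences are given as log2(signal + 18.8), bgcn minus wild-type, with a standard error (SE). The pseudocount of 18.8 understates the change of a gene that was dim in either group. Tests covered probe sets with a signal above 42.9 on at least 5 of the 16 arrays, and adjusted p-values come from limma with Benjamini-Hochberg adjustment over all tested probe sets. In whole testes, fewer cells of a type and less RNA per cell cannot be told apart.

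Median signals of the arrays were 56.2 to 59.4 in wild-type and 67.8 to 74.2 in bgcn, and the 100 brightest probe sets held 26.9 to 28.2% and 20.5 to 29.1% of the summed signal. Log2 values of tested probe sets correlated at 0.932 to 0.944 among wild-type arrays, at 0.870 to 0.960 among bgcn arrays and at 0.185 to 0.267 between the genotypes. The median log2 signal of the spermatid differentiation genes was 11.77 ± 0.17 (SD, n = 5) on the wild-type arrays and 5.35 ± 0.12 on the bgcn arrays. The early germline genes ran the other way, at 5.70 to 6.28 and 7.78 to 8.56. Neither list's array medians overlapped between the genotypes, so on these marker lists no array stood with the other group.

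Of the genes that define the genotypes, bgcn, on chromosome arm 2R, read 102.6, 80.9, 141.5, 61.3 and 136.1 on the wild-type arrays and 56, 102.2, 72.4, 60.1 and 47.6 on the bgcn arrays. The ranges overlap, and the difference of -0.50 ± 0.26 did not pass (limma adjusted p = 0.092). It passed at -0.62 without bgcn array 2 and at -0.64 without wild-type array 4. upd1, the JAK-STAT ligand of the hub, read 5.1 to 18.5 in wild-type and 3.8 to 15.3 in bgcn, and differed by -0.086 ± 0.22 (adjusted p = 0.74). These values all lie below the pseudocount of 18.8, so upd1 passed the filter only through the Os+bgcn arrays. The test cannot tell an unchanged upd1 from an undetected one, though upd1 is counted below among the tested hub and JAK-STAT genes. Whether the bgcn probe set lies in the mutated part of the gene was not analysed here, so its value does not check the genotype.

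Most of the transcriptome differed. Of 10422 probe sets tested, 7277 (69.8%) changed, 4918 (47.2%) higher and 2359 (22.6%) lower in bgcn. The falls were larger than the rises. The median change was 1.32 among the higher and -2.26 among the lower probe sets, and a change of at least 16-fold was reached by 18 probe sets that were higher and 546 that were lower. Counted as genes, each by its probe set with the highest mean, 4039 of 8563 rose (47.2%), 2059 fell (24.0%), and for 4862 (56.8%) the 5 bgcn arrays did not overlap the 5 wild-type arrays. By signal, 498 genes were above 181.1 (the upper quartile of all values) on all 5 wild-type arrays and below 42.9 on all 5 bgcn arrays, and 46 genes showed the opposite pattern. Every count of members below is to be read against these shares. Where none of a list rose or none fell by the adjusted limma test, an unadjusted p under 0.05 added only eIF5B (lower) and shg (higher in bgcn, a hub marker); no other tool was run.

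The direction of a moderate change rests on the scaling. A common trimmed mean sets the average transcript as the reference. With each array centred instead on the median of 16 cytosolic ribosomal protein probe sets, every change shifted by -2.24, and 190 probe sets were higher and 8508 lower. For a gene near the floor in both groups, a call of lower follows from this shift alone and shows no measured fall. Quantile normalization moved the median of all tested probe sets, 0.46, by -0.14 and median centring by -0.25. They left 62.8% and 59.1% of the changed probe sets higher, against 67.6%. A rise under 2.24 therefore turns into a fall under ribosomal centring, and every rise described below that is smaller than this carries that limit; list medians are given on both scales. The differences between genes within an array are not affected.

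**Figure D1:**
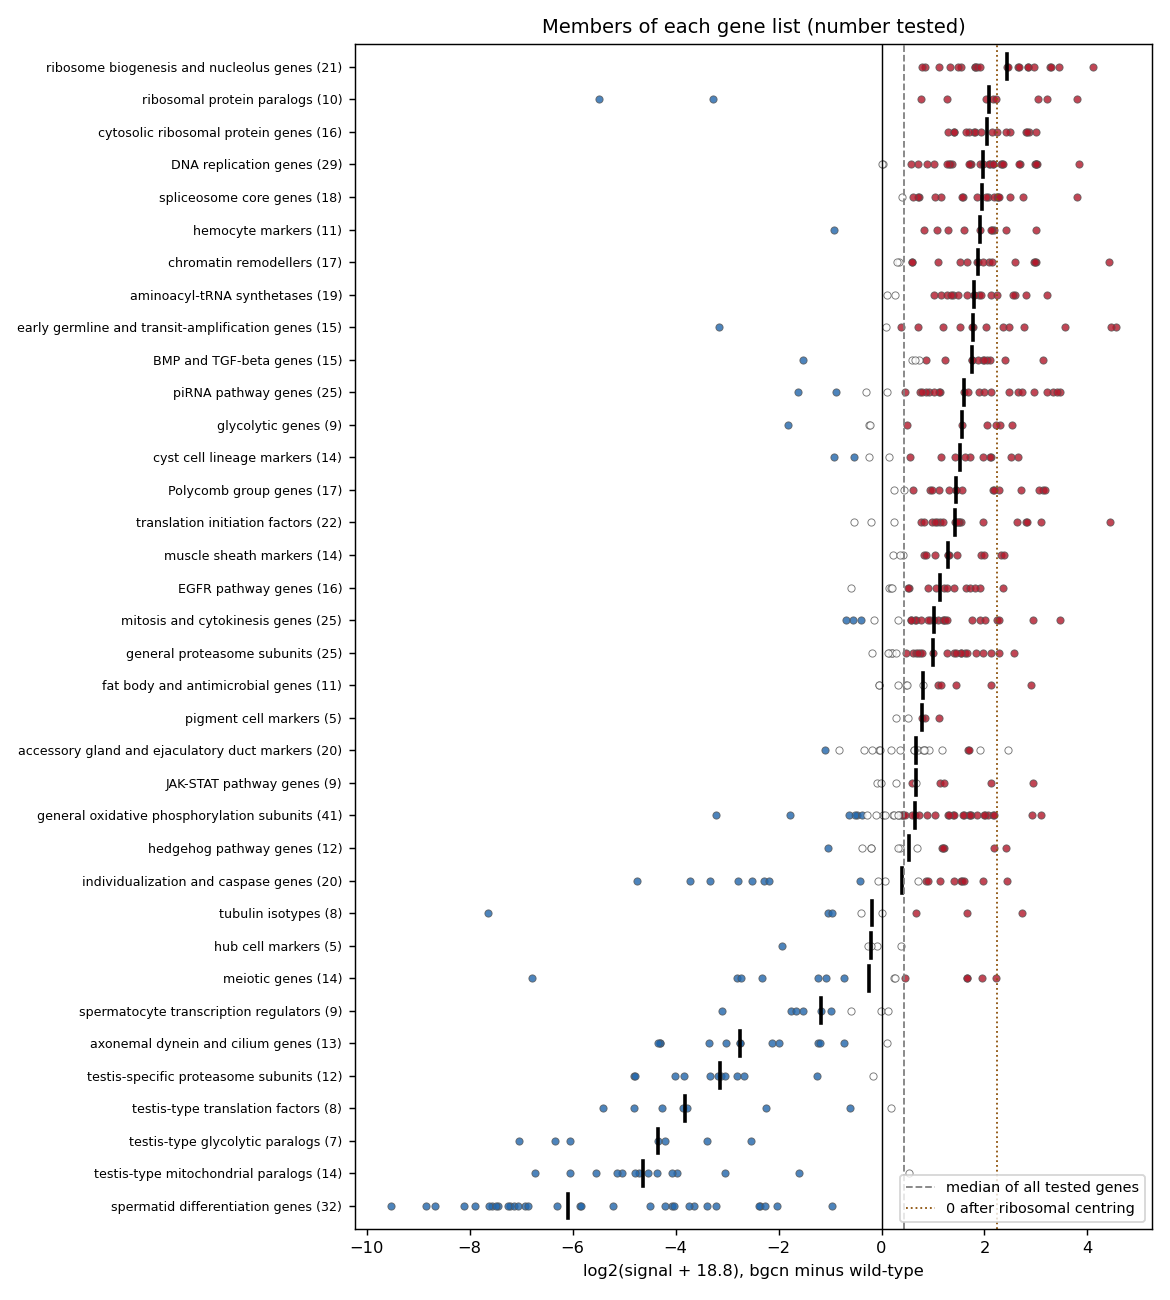
Each point is 1 tested member of 1 of the 36 gene lists, placed by its difference between bgcn and wild-type on the log2(signal + 18.8) scale; filled points passed (red higher, blue lower), open points did not, and bars mark list medians. The lists of spermatid and testis-type genes lie far to the left of 0, down to -9.53. Most members of the growth and division lists lie between 0 and 4.44, many of them left of the dotted line that marks 0 after ribosomal centring.

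The 12 named genes with the largest rises were led by 2 genes of the early germline. nanos, a translational repressor that maintains germline stem cells, read 80.4, 56.5, 44.3, 66.5 and 22.4 on the wild-type arrays and 1152.4, 2054.1, 1614.5, 1649.9 and 1808.8 on the bgcn arrays. Its lowest bgcn value lies far above its highest wild-type value, and the rise was 4.56 ± 0.22 (adjusted p = 4.2e-13). zpg, the germline innexin that couples early germ cells to the soma through gap junctions, rose by 4.45 ± 0.19 (adjusted p = 5.1e-14). Of the other 10, several act in the nucleus and nucleolus: kis, a CHD-family chromatin remodeller, rose by 4.43 ± 0.19, emb, the nuclear export receptor exportin, by 4.38 ± 0.24, asf1, a histone chaperone, by 4.01 ± 0.16, and mod, a nucleolar DNA- and RNA-binding protein, by 4.06 ± 0.14. The initiation factor subunit eIF3f1 rose by 4.44 ± 0.31, and r-l, the enzyme of the last steps of UMP synthesis, by 4.21 ± 0.18. Nopp140, lig, Kots and pths rose by 4.10, 4.32, 4.16 and 3.91. These 12 were chosen as the largest rises without overlap between the groups, so neither their size nor their separation is a finding. With ribosomal centring all 12 stayed above 0, between 1.67 and 2.32. Second probe sets gave smaller rises of 2.52 for nanos, 2.41 for emb and 0.87 for kis.

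Of the 15 tested early germline and transit-amplification genes, 13 were higher, 1 was lower and 1 did not pass, with a median of 1.77 (-0.46 with ribosomal centring) beside 0.44 over all tested genes. vas, the germ cell RNA helicase, read 56.2, 66.1, 46.4, 33.3 and 42.3 in wild-type and 748.8, 812.7, 726.8, 838.7 and 752.4 in bgcn. The 2 ranges are far apart, and it rose by 3.57 ± 0.14 (adjusted p = 1e-14). bam itself, the partner of bgcn, read 12.5, 41.8, 13, 18.9 and 50.5 in wild-type and 149.7, 282, 364.9, 326.2 and 334.3 in bgcn. It was lowest on bgcn array 1, but above every wild-type array, and rose by 2.78 ± 0.24 (adjusted p = 2.7e-09); with ribosomal centring it stood at 0.54 and did not pass. twin, the Ccr4 deadenylase, was the exception, at 928.2, 897.5, 1160.1, 798.8 and 855.4 in wild-type and 26.4, 50.2, 151, 152.1 and 119.9 in bgcn, and fell by 3.17 ± 0.28. mei-P26, a TRIM-NHL protein of the same switch, was at 131.1 to 217.1 and 151.1 to 217.2 (difference 0.083 ± 0.16, adjusted p = 0.67).

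**Figure D2:**
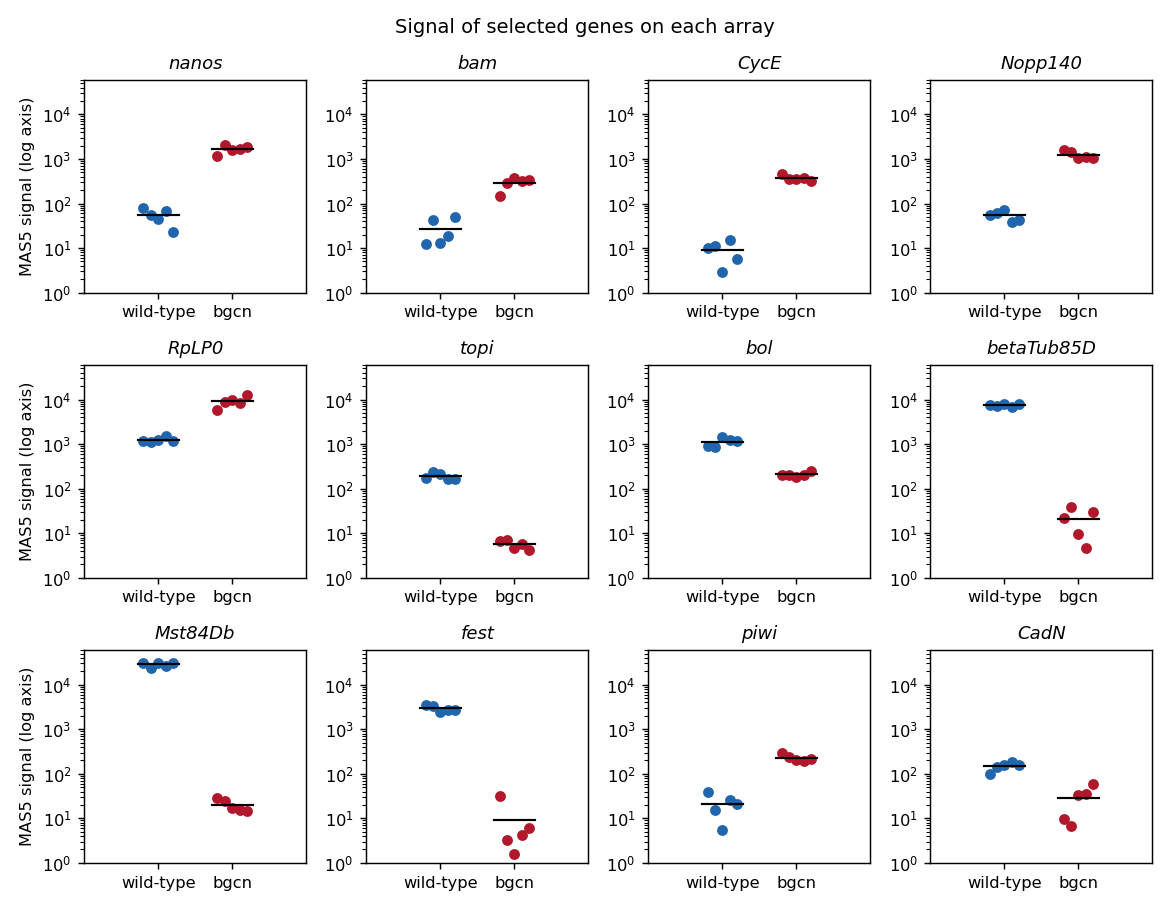
Each point is the MAS5 signal of a gene on 1 array (logarithmic axis), 5 wild-type arrays in blue and 5 bgcn arrays in red, with a bar at the arithmetic mean. In all 12 genes shown the groups do not overlap; nanos, bam, CycE, Nopp140, RpLP0 and piwi are higher in bgcn, and topi, bol, betaTub85D, Mst84Db, fest and CadN are lower.

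Genes of the piRNA pathway, which silences transposons in germ cells, mostly rose, 21 of 25 with 2 lower, at a median of 1.60 (-0.64 with ribosomal centring). qin, a Tudor-domain protein of the ping-pong cycle, read 34, 15.3, 18.2, 8.4 and 33.4 in wild-type and 277.6, 388.2, 474.6, 503.7 and 482.8 in bgcn. All 5 bgcn values lie far above the highest wild-type value, and the rise was 3.47 ± 0.20 (adjusted p = 3.5e-12), though only 0.68 (adjusted p = 0.0042) on the other probe set. shu, a cochaperone for loading Argonautes, rose by 3.40 ± 0.23, aub, a cytoplasmic Argonaute, by 3.33 ± 0.28, and vls, of the arginine methylation complex, by 3.21 ± 0.17. The 2 members that fell were papi, a mitochondrial Tudor protein, from 720.3 ± 70.3 (SD, n = 5) to 234 ± 100.3 (adjusted p = 2.7e-07), and squ, from 106 ± 22 to 48.5 ± 13.2 (adjusted p = 0.00011). Neither overlapped between the groups.

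Genes of DNA replication were 27 higher and none lower of 29, with a median of 1.96 (-0.27 with ribosomal centring). CycE, the cyclin of S phase entry, read 10.3, 11.3, 2.9, 15.3 and 5.7 in wild-type and 462.5, 364.3, 363.5, 381.1 and 315.2 in bgcn. It was near the floor of the array on every wild-type array, and rose by 3.84 ± 0.17 (adjusted p = 8.2e-14). PCNA, the sliding clamp, rose by 3.01 ± 0.16, the ribonucleotide reductase subunit RnrL by 3.00 ± 0.15, and Mcm3, of the replicative helicase, by 2.99 ± 0.24. E2f2, a repressive E2F, and the chromatin assembly factor subunit Caf1-105 did not pass, at 0.011 ± 0.18 (adjusted p = 0.96) and 0.038 ± 0.19 (adjusted p = 0.87), with overlapping arrays.

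Of 25 mitosis and cytokinesis genes 20 rose and 3 fell, at a median of 1.02 (-1.22 with ribosomal centring). Subunits of condensin, the complex that compacts mitotic chromosomes, moved in opposite directions. Its ATPase subunits glu and SMC2 rose by 3.46 ± 0.16 and 2.94 ± 0.13, glu from 13.3 to 20.8 to 310.4 to 483.7. Of its other subunits, Cap-H2 rose by 0.77 ± 0.22 (adjusted p = 0.0047) with overlapping arrays, and barr and Cap-G fell, barr from 201.5, 203.6, 249.4, 219.3 and 258.5 to 97.4, 166.4, 191.8, 123.7 and 177.8, by -0.55 ± 0.16 (adjusted p = 0.0049). Cap-G fell from 187 ± 32.4 to 108 ± 14.2 (SD, n = 5), by -0.69 ± 0.16 (adjusted p = 0.00083), but its second probe set gave 0.33 (adjusted p = 0.36). The third member that fell was pim, the securin, at -0.41 ± 0.17 (adjusted p = 0.038) with overlapping arrays; it did not pass without bgcn array 2, 3 or 5 or wild-type array 2, 3 or 4, at -0.32 to -0.42. The microtubule polymerase msps rose by 2.28 ± 0.13.

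Most genes of ribosome production and translation were higher on the deposited scale. All 21 tested genes of ribosome biogenesis and the nucleolus rose, with the highest median of the 36 lists, 2.43, and the only list median above 0 with ribosomal centring (0.20). Nopp140, a chaperone of small nucleolar ribonucleoproteins, read 54.8, 62.5, 69.9, 39 and 43.2 in wild-type and 1577.1, 1407.1, 1061.2, 1084 and 1028.9 in bgcn. The groups are far apart, and the rise was 4.10 ± 0.15 (adjusted p = 3.1e-15). Nop56 and NHP2, each a core protein of small nucleolar ribonucleoproteins, rose by 3.44 ± 0.12 and 3.28 ± 0.15, and Nnp-1, of ribosomal RNA processing, by 3.30 ± 0.25.

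Of 51 listed cytosolic ribosomal protein genes only 16 were on the table, and all 16 rose, at a median of 2.04. Ribosomal centring rests on these and sets their median near 0 by construction (-0.19 with the probe set used for each gene). RpLP0, of the ribosomal stalk, read 1158.4, 1108.1, 1219.6, 1525.7 and 1164 in wild-type and 5905.6, 8610.9, 9721.7, 8483.1 and 12932.1 in bgcn. The bgcn arrays spread more widely, with array 1 lowest and array 5 highest, yet all lie above wild-type, and the rise was 2.83 ± 0.20 (adjusted p = 1.3e-10). RpLP1 and RpL3 rose by 3.00 ± 0.28 and 2.87 ± 0.23. Of 10 tested ribosomal protein paralogs 8 rose and 2 fell (median 2.09, or -0.14 with ribosomal centring). RpS5b, a germline form of its protein, rose by 3.22 ± 0.26 and RpLP0-like by 3.79 ± 0.15. RpL10Aa was at 1152.5, 1481, 1185.8, 1199.2 and 1287.9 in wild-type and 19.9, 2.7, 1.6, 13.3 and 14 in bgcn, a change of -5.50 ± 0.20 (adjusted p = 3.5e-15), and RpS28a changed by -3.27 ± 0.18.

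Translation initiation factors were 19 higher and none lower of 22 (median 1.43, -0.80 with ribosomal centring), and aminoacyl-tRNA synthetases, which charge tRNAs, 17 higher and none lower of 19 (median 1.80, -0.44). eIF3f1 read 41.7, 50.3, 33.8, 140.3 and 20.2 in wild-type and 753.3, 1261.8, 2204.5, 1646.7 and 1782.1 in bgcn, where array 1 was lowest. eIF4G1, the scaffold of the cap complex, rose by 3.11 ± 0.14, and the synthetases GlyRS and AlaRS by 3.22 ± 0.16 and 2.80 ± 0.27. The spliceosome core was similar, with 17 higher and none lower of 18 (median 1.95, -0.29). Prp19, a ubiquitin ligase of spliceosome activation, rose by 3.80 ± 0.14 and Prp8, at the catalytic centre, by 2.51 ± 0.25. SmD2, of the Sm ring, rose by 2.76 ± 0.12 on the probe set used, but its other probe set gave -0.12 (adjusted p = 0.73).

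Polycomb group genes, which keep developmental genes silent, were 15 higher and none lower of 17 (median 1.46, -0.78 with ribosomal centring). sxc, the O-GlcNAc transferase, rose by 3.18 ± 0.16, esc, of the histone methyltransferase complex, by 3.14 ± 0.17, and Sfmbt, of the DNA-binding PhoRC complex, by 3.05 ± 0.23. esc read 5.2 to 16.7 in wild-type and 152.5 to 283.6 in bgcn. Chromatin remodellers were likewise 15 higher and none lower of 17 (median 1.87, -0.37). Beside kis, the Brahma complex subunits osa and Snr1 rose by 2.96 ± 0.20 and 2.98 ± 0.17, and the ATPase dom by 3.00 ± 0.33, with bgcn array 1 at 877.2 and the other bgcn arrays at 208.1 to 309.5.

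**Figure D3:**
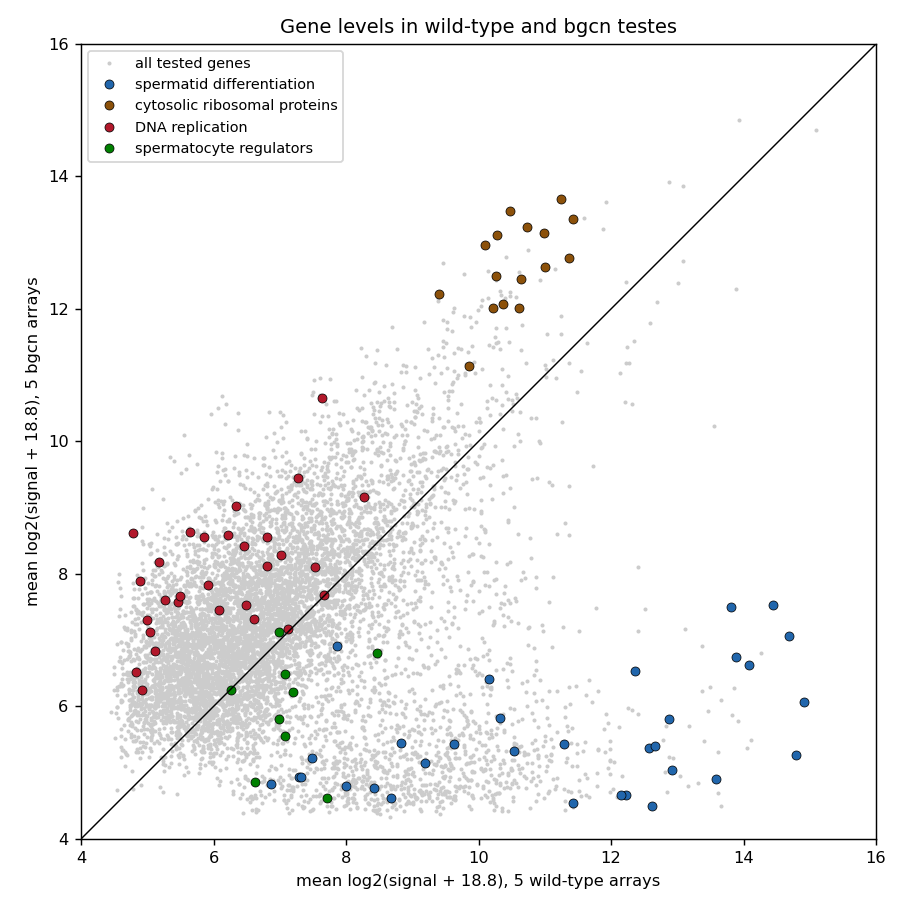
Each point is a tested gene, placed by its mean log2(signal + 18.8) over the 5 wild-type arrays (horizontal) and the 5 bgcn arrays (vertical), with the diagonal marking equal levels. Spermatid genes (blue) lie far below the diagonal, the 9 tested spermatocyte regulators (green) on it or below it, and ribosomal protein (brown) and DNA replication genes (red) above it, except 2 replication genes that lie on it.

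The regulators that switch on the spermatocyte programme were lower, with a median closer to 0 than those of the spermatid lists. Their median level on the wild-type arrays was 7.11, beside 11.77 for the spermatid differentiation genes. With the pseudocount, genes that start lower have less room to fall, so the sizes of these medians cannot be compared. Of 9 tested spermatocyte transcription regulators 6 fell and none rose (median -1.18, -3.42 with ribosomal centring), and sa, comr and achi were too dim to test. topi, a zinc-finger subunit of the testis meiotic arrest complex, read 177.6, 242.5, 209.4, 167.7 and 168.6 in wild-type and 6.7, 7.2, 4.7, 5.6 and 4.1 in bgcn. Its bgcn values lie at the bottom of the array's range, and it fell by 3.10 ± 0.18 (adjusted p = 4.5e-12). Of the testis-specific TAFs, can changed by -1.76 ± 0.19, Taf12L by -1.66 ± 0.19, nht by -1.18 ± 0.27 and mia by -0.99 ± 0.19. kmg, a zinc-finger protein that blocks somatic transcription in spermatocytes, fell by 1.53 ± 0.24.

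Taf12L stayed well above the floor in bgcn, at 158.6, 125.1, 64.6, 70.7 and 73.9, against 368.1, 327.5, 359.1, 333.5 and 289.7 in wild-type. The other 3 tested regulators did not pass. aly, of the same complex as topi, read 107.8, 126.1, 108.5, 142.4 and 97.6 in wild-type and 22.5, 120.0, 108.3, 47.6 and 99.7 in bgcn, with overlapping arrays (difference -0.59 ± 0.33, adjusted p = 0.12); it passed at -0.83 with quantile normalization and at -0.84 with median centring. tomb and dany differed by -0.015 ± 0.36 and 0.13 ± 0.23 (adjusted p = 0.97 and 0.62).

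Of 14 tested meiotic genes 7 fell and 5 rose, at a median of -0.24 (-2.47 with ribosomal centring). fest, which with Rbp4 controls cyclin B translation in spermatocytes, had the largest fall. It read 3533.2, 3349, 2403.8, 2702.9 and 2758.7 in wild-type and 31.7, 3.3, 1.6, 4.2 and 6 in bgcn, where array 1 stood highest, and fell by 6.79 ± 0.22 (adjusted p = 9.9e-16). Rbp4 changed by -2.81 ± 0.27 and uno, which holds homologous chromosomes together in male meiosis, by -2.74 ± 0.21. bol, the translational regulator of the meiotic divisions, read 919.7, 880.4, 1462.5, 1260.5 and 1182.7 in wild-type and 206.7, 197.7, 185.7, 201.7 and 252.9 in bgcn. Its bgcn signal was not near the floor, and it fell by 2.33 ± 0.15 (adjusted p = 1.9e-11). twe, the meiotic Cdc25 phosphatase, fell by 1.24 ± 0.14, to 80.2 to 110.1. Among those that rose were ord, of meiotic sister chromatid cohesion, from 39.4 to 88.2 to 314.6 to 457.9 (2.23 ± 0.19), and c(3)G, of the synaptonemal complex of female meiosis, from 5.2 to 28.3 to 59.4 to 228.8 (1.94 ± 0.27).

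All 32 tested spermatid differentiation genes fell, with no overlap between the groups in any of them, and their median of -6.08 (-8.32 with ribosomal centring) was the lowest of the 36 lists. 15 further listed genes were not on the table. Mst84Db, a cysteine-rich protein of the sperm tail, was the gene with the largest change of all. It read 30674.6, 23724.6, 31338.4, 26791.7 and 30014.9 on the wild-type arrays, among the brightest signals there, and 28.1, 24.3, 17.5, 15.7 and 14.3 on the bgcn arrays. Every bgcn value is below the limit of 42.9, and the change was -9.53 ± 0.30 (adjusted p = 4.8e-16). Its relatives Mst84Dc, Mst98Cb, Mst84Da and Mst98Ca changed by -8.86, -8.68, -7.62 and -7.46. These genes belong to small families of similar sequence, so signal may be shared among their probe sets.

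ocn and janB, neighbouring testis genes of the janus family, read 6301 ± 854 and 6113 ± 614 (SD, n = 5) in wild-type and 4.02 ± 3.14 and 24.2 ± 15 in bgcn, changes of -8.11 ± 0.15 and -7.21 ± 0.22. soti, an inhibitor of the caspase-activating ubiquitin ligase in spermatids, fell by 7.89 ± 0.23. The sperm chromatin proteins Mst77F and tHMG1 changed by -7.57 ± 0.16 and -7.25 ± 0.29, and dj, of the sperm tail, by -7.49 ± 0.20. The smallest changes of the list were those of ProtB, a protamine, at -2.04 ± 0.22 from a wild-type signal of only 68.7 to 121.8, which its near-identical copy ProtA may share, and snky, of the sperm acrosome membrane, at -0.96 ± 0.19, which kept a signal of 74.7 to 145 in bgcn.

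Tubulin isotypes moved in opposite directions. betaTub85D, the beta-tubulin of spermatocytes and the sperm tail, read 7724.4, 7297.6, 7966.3, 6865.8 and 7781.9 in wild-type and 21.4, 39.6, 9.6, 4.7 and 29.4 in bgcn, and fell by 7.65 ± 0.23 (adjusted p = 3.2e-16). betaTub56D, the general isotype, read 804.7, 895.6, 647.1, 463.5 and 547.2 in wild-type and 5843.1, 5213.3, 3464.4, 3312 and 4956.1 in bgcn, and rose by 2.73 ± 0.25 (adjusted p = 5.3e-09). Neither overlapped between the groups. betaTub97EF rose by 1.66 ± 0.25, and alphaTub84D and alphaTub85E changed by -1.03 and -0.96. Of the 8 tested, 3 rose and 3 fell, at a median of -0.19 (-2.43 with ribosomal centring) that turned to 0.14 without bgcn array 1.

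Of 13 tested axonemal dynein and cilium genes 12 fell and none rose (median -2.76, -4.99 with ribosomal centring). Tektin-C and Tektin-A, filament proteins of the axonemal doublets, changed by -4.31 ± 0.18 and -3.36 ± 0.22. hmw, needed for motile cilia, read 333.6 to 516.8 in wild-type and 1.4 to 4.8 in bgcn, a change of -4.30 ± 0.17 (adjusted p = 1.7e-14). The exception was the outer-arm heavy chain Dhc93AB, dim in both groups at 44.4 to 85.5 and 55.4 to 91.9 (0.11 ± 0.19, adjusted p = 0.63).

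Several housekeeping functions have a second, testis-type gene in flies, and 58 pairs of a general gene and its testis-type relative were listed. Both members were tested in 42 pairs. In 32 of these the general gene rose and the testis-type gene fell, in 1 pair both rose, and in 9 at least one did not pass. Of the 35 general genes 33 rose (median 1.91), and of the 42 testis-type genes 36 fell, 1 rose and 5 did not pass (median -3.16). The rise of the general genes rests on the scaling. With ribosomal centring their median was -0.33 and 3 rose, so that 3 pairs were opposed. In each of the 42 pairs the estimated change of the general gene lay above that of its testis-type relative, and centring cannot alter that difference. The differences within pairs were not tested, and the smallest was that of TfIIA-S and TfIIA-S-2, at 2.01 and 1.86. Some general genes enter more than 1 pair, so the pairs are not independent.

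**Figure D4:**
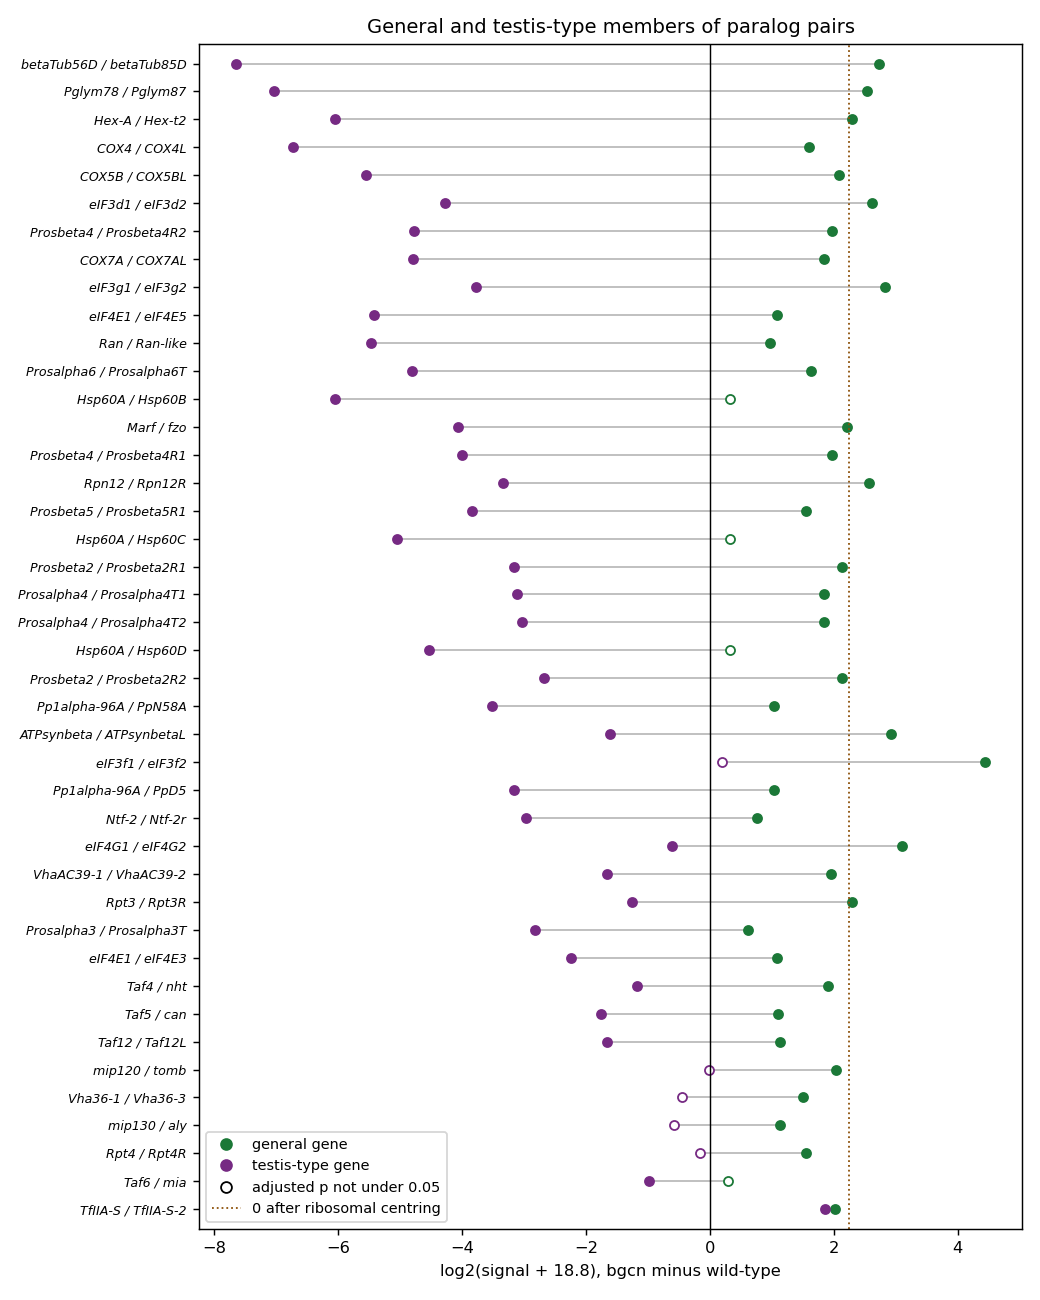
Each row is 1 of the 42 pairs tested, with the general gene in green and the testis-type gene in purple, placed by the difference between bgcn and wild-type on the log2(signal + 18.8) scale; open points did not pass, and the dotted line marks 0 after ribosomal centring. The testis-type gene lies to the left of the general gene in every pair, from betaTub56D and betaTub85D at 2.73 and -7.65 to TfIIA-S and TfIIA-S-2 at 2.01 and 1.86.

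In glycolysis, 7 of 7 tested testis-type paralogs fell (median -4.34, -6.58 with ribosomal centring), and 6 of 9 general glycolytic genes rose with 1 lower (median 1.56, -0.68). Pglym87, a testis phosphoglycerate mutase, read 3027.7, 2909.4, 3095.7, 3394.6 and 3894.5 in wild-type and 5, 11.2, 5.4, 5 and 3.7 in bgcn, and fell by 7.04 ± 0.16 (adjusted p = 4e-18). Pglym78, the general form, read 212.1, 40.6, 252.4, 59.8 and 110.6 in wild-type and 757.8, 639.6, 754.2, 659.4 and 922 in bgcn, and rose by 2.54 ± 0.30. The wild-type values of Pglym78 spread widely, yet stayed below all bgcn values. The hexokinases Hex-t2 and Hex-A changed by -6.05 ± 0.19 and 2.30 ± 0.19. Pfk, phosphofructokinase, was the general gene that fell, from 1061 ± 101 to 286 ± 16.8 (SD, n = 5), by -1.82 ± 0.12.

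Of 14 tested testis-type mitochondrial paralogs 13 fell (median -4.63, -6.87 with ribosomal centring). COX4L and COX5BL, testis forms of cytochrome oxidase subunits, changed by -6.73 ± 0.24 and -5.56 ± 0.19, while COX4 and COX5B rose by 1.60 ± 0.18 and 2.08 ± 0.16. COX4L read 2202.7, 2227.8, 2573.4, 2832.6 and 2842.9 in wild-type and 12.2, 4.8, 2.3, 3.9 and 3.3 in bgcn; COX4 read 750.2, 584.7, 625.8, 763.2 and 658.6 and 1379.1, 1730.5, 2803.5, 2683.8 and 2171.3. Both pairs of ranges are separate, in opposite directions. fzo, the mitofusin that builds the nebenkern of spermatids, fell by 4.07 ± 0.21, and Marf, the general mitofusin, rose by 2.22 ± 0.24. Hsp60B, a testis chaperonin, fell by 6.05 ± 0.24, but Hsp60A did not pass at 0.32 ± 0.23 (adjusted p = 0.23), or passed at 0.54 without bgcn array 1. ttm50, of mitochondrial import, did not pass at 0.54 ± 0.39 (adjusted p = 0.23) and passed at 0.89 without that array.

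The general subunits of oxidative phosphorylation were less uniform, with 25 of 41 higher and 6 lower (median 0.65, -1.59 with ribosomal centring). ATPsynC, of the rotor ring, rose by 3.10 ± 0.17 (0.82 on its other probe set) and ATPsynbeta, of the catalytic head, by 2.92 ± 0.17, while its paralog ATPsynbetaL fell by 1.61 ± 0.17. COX7C read 174, 226.8, 137.9, 214.2 and 275.4 in wild-type and 3.8, 9.6, 2.4, 3.2 and 5.3 in bgcn, a change of -3.22 ± 0.18 although it was listed as a general subunit. ND-13A, of complex I, fell by 1.78 ± 0.13 to 524.9 to 687.

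In the proteasome, 11 of 12 tested testis-specific subunits fell (median -3.14, -5.38 with ribosomal centring), and of 25 general subunits 19 rose and none fell (median 1.00, -1.23). Prosalpha6T read 1178.6, 992.1, 1121.2, 989.7 and 1160.5 in wild-type and 39.7, 28.1, 27.2, 3.4 and 15.5 in bgcn. Its general relative Prosalpha6 read 291.4, 182.8, 182.6, 107.9 and 185.9 and 533.6, 520.0, 812.8, 822.4 and 419.2. The testis form fell by 4.81 ± 0.24 and the general form rose by 1.63 ± 0.21. Prosbeta4R2 and Rpn12R changed by -4.79 ± 0.20 and -3.34 ± 0.28, and Prosbeta4 and Rpn12 rose by 1.97 ± 0.13 and 2.57 ± 0.14. Rpt4R, at 311 to 478.7 in wild-type and 246.3 to 502.4 in bgcn, was the testis-type subunit that did not pass (-0.16 ± 0.20, adjusted p = 0.48), and its general relative Rpt4 rose by 1.55 ± 0.17. Rpt3, of the same ATPase ring, rose by 2.29 ± 0.25.

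Of 8 testis-type translation factors 7 fell (median -3.81, -6.05 with ribosomal centring). The cap-binding protein eIF4E5 changed by -5.42 ± 0.25 and eIF4E3, needed for spermatocyte meiosis, by -2.25 ± 0.20, while the general eIF4E1 rose by 1.08 ± 0.13. eIF3g2 and eIF3d2 changed by -3.77 and -4.27, and eIF3g1 and eIF3d1 rose by 2.82 and 2.62. eIF4G2 changed by only -0.62 ± 0.14, from 1320.2 to 1899.5 to 777.7 to 1194. eIF3f2 did not pass, at 292.8 to 414.7 in wild-type and 390.8 to 440.6 in bgcn (0.19 ± 0.13, adjusted p = 0.18), in contrast to the rise of 4.44 of eIF3f1.

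Pairs of nuclear transport and transcription factors completed the set. The GTPase Ran rose by 0.97 ± 0.16 and Ran-like changed by -5.47 ± 0.23, and Ntf-2, which imports Ran, rose by 0.76 ± 0.20 while Ntf-2r changed by -2.97 ± 0.39. Ran-like read 1196.4 to 1550.8 in wild-type and 3.5 to 26.4 in bgcn. The general TAFs Taf5, Taf4 and Taf12 rose by 1.09 ± 0.16, 1.91 ± 0.25 and 1.13 ± 0.18, each opposite to its testis-type relative can, nht or Taf12L. mip130 and mip120, general relatives of aly and tomb, rose by 1.13 ± 0.29 and 2.04 ± 0.19. The pair that rose together was TfIIA-S, at 2.01 ± 0.15, and TfIIA-S-2, at 1.86 ± 0.17.

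Genes of spermatid individualization and of caspases, which spermatids use to shed their cytoplasm, were 9 higher and 8 lower of 20, with a median of 0.39 (-1.85 with ribosomal centring) and a mean of -0.39, of opposite sign. The largest changes were falls. orb2, a translational regulator needed for spermatid differentiation, read 1750.1, 1278.6, 1220.9, 1079 and 1325.3 in wild-type and 36.4, 53.3, 25.1, 46 and 8.1 in bgcn, and fell by 4.74 ± 0.25 (adjusted p = 1.2e-12). fan changed by -3.71 ± 0.12, and Cul3, of the ubiquitin ligase that activates caspases in spermatids, and ntc, an F-box protein also needed for that activation, by -2.78 ± 0.14 and -3.33 ± 0.18. Cul3 remained at 317.4 to 416 in bgcn. Dcp-1, an effector caspase, moved the other way, from 8.2 to 36 to 145.6 to 272, a rise of 2.43 ± 0.23.

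Lists of signalling genes through which soma and germline instruct each other were read against the 47.2% of all genes that rose. Of 9 tested JAK-STAT genes 5 rose and none fell (median 0.66, -1.57 with ribosomal centring). Stat92E, the transcription factor of the pathway, read 65.8, 49.7, 46.8, 77.4 and 32.6 in wild-type and 1058, 576.5, 374.8, 400.4 and 447.8 in bgcn, highest on array 1, and rose by 2.94 ± 0.23 (adjusted p = 6.7e-10), or 2.02 on its other probe set. apt, which limits STAT activity, rose by 2.12 ± 0.17. Of 16 tested EGFR genes 12 rose and none fell (median 1.14, -1.10). S (Star), which carries EGFR ligands through the secretory pathway, rose by 2.36 ± 0.18 and edl, a modulator of ETS factors, by 1.91 ± 0.22. The ligand spi (spitz) rose by 1.63 ± 0.18, while the receptor Egfr did not pass at 0.14 ± 0.25 (adjusted p = 0.64), although its other probe set gave 0.94 (adjusted p = 0.0031).

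Hedgehog genes were 5 higher and 1 lower of 12 (median 0.53, -1.71 with ribosomal centring). smo, the signal transducer, rose by 2.42 ± 0.22, and rdx, an adaptor for turnover of the transcription factor Ci, by 2.19 ± 0.29, but the other probe set of rdx gave -0.27 (adjusted p = 0.51). slmb, an F-box protein that acts in the same turnover, fell by 1.05 ± 0.15. BMP and TGF-beta genes, whose signals keep germline stem cells from differentiating, were 11 higher and 1 lower of 15 (median 1.77, -0.47). put, a type II receptor, read 28.7, 55.8, 30.1, 28.1 and 6.2 in wild-type and 345.5, 532.2, 363.4, 370.1 and 332.5 in bgcn, and rose by 3.13 ± 0.23 (adjusted p = 2e-10). The ligand gbb rose by 2.12 ± 0.20, tkv, a type I receptor, by 1.98 ± 0.13 (0.63 on its other probe set), and shn, a zinc-finger cofactor of Smads, by 2.39 ± 0.21. Smurf, a ubiquitin ligase that limits BMP signalling, fell from 471 ± 75.1 to 151 ± 11.3 (SD, n = 5), by -1.52 ± 0.16.

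Markers of somatic cells of the testis did not move together. Of 5 tested hub markers, 1 fell and none rose (median -0.21, -2.44 with ribosomal centring). The median level of the list was 6.05 to 6.41 on the wild-type and 5.01 to 5.82 on the bgcn arrays. The middle gene of the list was not the same in both groups, so the gap between these levels is not the change of any gene. CadN, the N-cadherin of hub cells, read 99.6, 142.3, 159.8, 185.1 and 156.9 in wild-type and 9.5, 6.8, 33, 34.5 and 57.8 in bgcn, lowest on arrays 1 and 2, and fell by 1.93 ± 0.25 (adjusted p = 7.4e-07). esg, a repressor needed in hub and cyst stem cells, was low in both at 28.4 to 43.5 and 13.5 to 37.7 (-0.27 ± 0.17, adjusted p = 0.16). It passed at -0.37 without bgcn array 5, which made 2 members lower, and at -0.38 and -0.52 with quantile normalization and median centring. hh, the ligand sent by the hub, differed by -0.21 ± 0.21 (adjusted p = 0.39). On the Os+bgcn arrays CadN and esg differed from bgcn by 2.54 ± 0.24 and 4.31 ± 0.16 (limma adjusted p = 2.8e-07 and 8.4e-13). With its low signal in wild-type and bgcn, esg passed the filter only through the Os+bgcn arrays. The filter thus favoured a high esg on those arrays, and its adjusted p-value there is not independent of that selection.

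Cyst cell lineage markers were 10 higher and 2 lower of 14 (median 1.52, -0.72 with ribosomal centring). piwi, the nuclear Argonaute that germline stem cells share with cyst and hub cells, read 38.9, 15.3, 5.5, 26.4 and 21 in wild-type and 290.8, 237, 201.2, 190.6 and 210.3 in bgcn, and rose by 2.65 ± 0.19 (adjusted p = 1.4e-10). zfh1, a transcription factor of cyst stem cells, rose by 2.12 ± 0.27, Nrt, a surface protein of the lineage, by 2.10 ± 0.25 (0.74 on its other probe set), and puc, a phosphatase of JNK signalling, by 2.51 ± 0.27. tj, a Maf factor of early cyst cells, was dim in both groups, at 17.7 to 32.9 and 12.4 to 25.7 (-0.24 ± 0.37, adjusted p = 0.57). These values all lie below the limit of 42.9, so tj passed the filter only through the Os+bgcn arrays. The 2 that fell were so, at -0.54 ± 0.21 (adjusted p = 0.028, overlapping arrays), and vkg, a collagen. so did not pass without bgcn array 1 or 3 or wild-type array 2, 3 or 4, at -0.43 to -0.52, nor with the replicate number as a block (adjusted p = 0.057). vkg was at -0.93 on the probe set used and at 1.46 (adjusted p = 1.1e-05) on the other, so its direction is not settled.

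**Figure D5:**
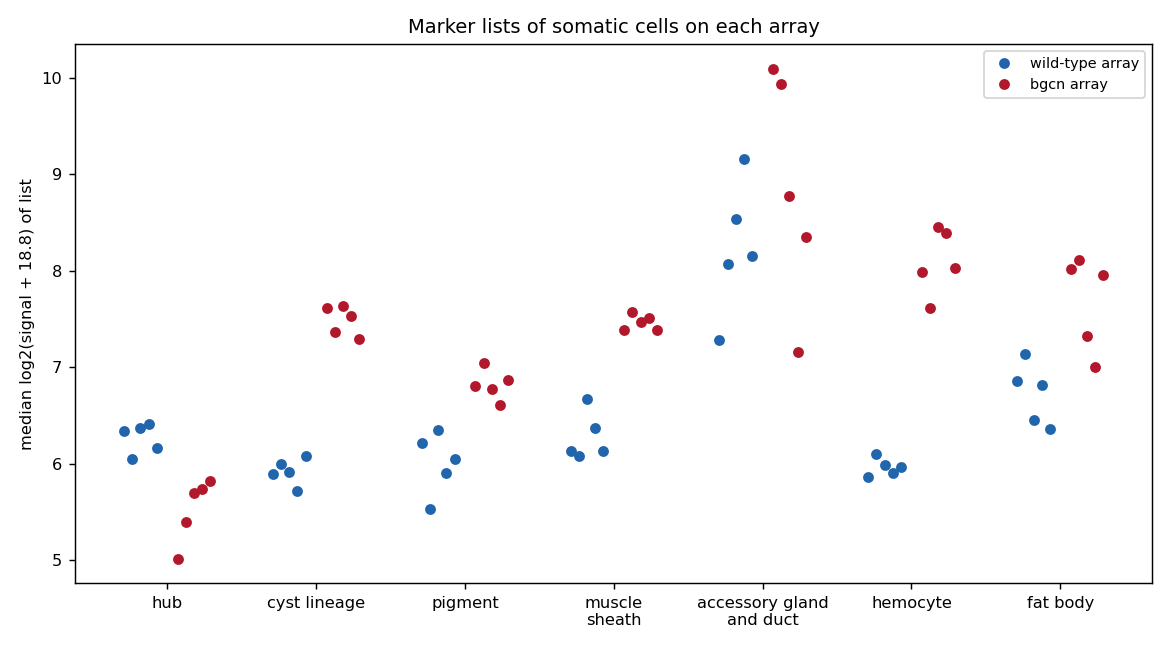
Each point is the median log2(signal + 18.8) of a marker list on 1 array, wild-type in blue and bgcn in red, ordered within each group from array 1 to 5. Medians of the hub list lie lower in bgcn and those of the cyst lineage, pigment, muscle and hemocyte lists higher, without overlap. Accessory gland and fat body medians overlap. The middle gene of the hub list was not the same in both groups, and of 5 tested hub markers only CadN fell.

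Markers of the muscle sheath and pigment cells of the testis, and of tissues that can adhere to a dissected testis, were also measured. Muscle sheath markers were 11 higher and none lower of 14 (median 1.30, -0.94 with ribosomal centring). bt, a giant protein of the sarcomere, and the myosin light chain Mlc2 rose by 2.38 ± 0.26 and 2.32 ± 0.23. Prm, paramyosin, rose by 1.99 ± 0.37 and was lowest on bgcn array 1, at 28. Hemocyte markers were 10 higher and 1 lower, vkg, of 11 (median 1.91, -0.33). Ppn, a matrix protein, read 49.6, 119.1, 29.1, 43 and 29.4 in wild-type and 237.5, 335.6, 949.4, 921 and 504.6 in bgcn, highest on arrays 3 and 4, a rise of 2.99 ± 0.33. crq, a scavenger receptor, and Hml, hemolectin, rose by 2.41 ± 0.22 and 2.19 ± 0.26. Of 5 tested genes listed as pigment cell markers 3 rose, car, or and dor, and none fell (median 0.79, -1.45). car rose by 1.11 ± 0.19, and 5 were too dim to test. Whether car, or and dor mark pigment cells in the testis was not tested, so their rise is no measure of these cells.

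Fat body and antimicrobial genes were 5 higher and none lower of 11 (median 0.81, -1.43 with ribosomal centring). The lipase Lip4 rose by 2.91 ± 0.28 and Drs, drosomycin, by 2.14 ± 0.27; Yp3, a yolk protein, rose by 1.45 ± 0.40 with overlapping arrays. Accessory gland and ejaculatory duct markers, secreted proteins of the seminal fluid, were 2 higher and 1 lower of 20 (median 0.67, -1.57), with 17 not passing. Their array medians were 10.09, 9.94, 8.77, 7.16 and 8.35 on bgcn arrays 1 to 5 and 7.28 to 9.16 on the wild-type arrays. The bgcn arrays thus lie on both sides of the wild-type range. Gld, glucose dehydrogenase of the duct, rose by 1.70 ± 0.22 and Acp32CD by 1.68 ± 0.41. Acp95EF fell at -1.10 ± 0.48 (adjusted p = 0.048), a call lost without any 1 of bgcn arrays 3 to 5 or wild-type arrays 2 to 5, at -0.81 to -1.18. Without bgcn array 4 the count of members that rose was 8, and it was 4 or 5 without bgcn array 1, 3 or 5 or wild-type array 3 or 4. Leaving out bgcn arrays 1 and 2, the highest in accessory gland markers, left 4805 probe sets higher and 2345 lower. Array medians of the muscle sheath and hemocyte markers, at 6.08 to 6.67 and 5.86 to 6.10 in wild-type, were higher on all 5 bgcn arrays, at 7.38 to 7.57 and 7.61 to 8.45. The part of these tissues in the other differences was not tested.

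The shares of genes that fell are given by chromosome and gene class as descriptions, with no test. A fall of at least 16-fold was seen in 54 of 1417 tested genes on the X chromosome (3.81%) and in 5.88 to 6.77% of the genes on each of the 4 large autosomal arms. The share that fell at all was 21.9% on the X and 23.3 to 27.2% on these arms. On chromosome 4, with 40 tested genes, 30 rose and 2 fell. Of the 507 genes that fell at least 16-fold, 69.6% have no name beyond a CG number, against 29.1% of the genes that rose and 39.7% of all tested genes. In 5728 adjacent pairs of tested genes, the neighbour of a gene that fell had itself fallen in 30.9% of cases, and the neighbour of a gene that rose in 19.3%, against 22.8% over all genes. Adjacent genes of similar sequence, whose probe sets may share signal, were not set apart.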

How the data were processed

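Total RNA of dissected testes (about 5 µg per sample) was hybridized to Affymetrix DrosGenome1 arrays, per the labels. The deposited intensity values are linear MAS5 signals, 1 per probe set, per the submitters' processing notes; the MAS5 version was not stated in the sources used here. The table holds 13966 probe sets, of which 12443 carry 1 gene symbol in the platform annotation, 327 several and 1196 none. Symbols were updated through RefSeq's gene table for Drosophila melanogaster (Release 6), which gave 10826 genes. No sequence was read, and promoter motifs were not analysed here.

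Signals were transformed to log2(signal + 18.8), the pooled 25th percentile, and filtered at 42.9, the pooled 40th percentile. limma 3.58.1 (R 4.3.3) fitted 1 coefficient per group to all 16 arrays, with eBayes and an intensity trend. P-values are two-sided, adjusted over the 10422 tested probe sets, at a threshold of 0.05. A gene was read from its brightest probe set by mean log2 value. Among 19 further tested probe sets of these genes, 14 gave the same call. In simulated data with changes of 0.5, 1 and 2 added to a few of the brighter probe sets, 16 of 67, 46 of 67 and 66 of 66 were called, and 4 of 9613 unchanged ones. Nearly all simulated probe sets were unchanged, whereas 69.8% changed in the data, so these shares do not carry over to the comparison.

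The comparison, the 36 gene lists and the 58 pairs were chosen with earlier results of these data known. A member absent from the counts was not on the table or too dim to test, and a gene bright in 1 group only had to differ once it passed the filter, so the counts describe the members and support nothing. The genes named were, in each direction, the 12 with the largest changes among those that passed without overlap and have a name, up to 4 passing members of each list with the largest changes, up to 2 that moved against the list's median, and members of paralog pairs; those printed were picked from these after their values were seen. bam, mei-P26, E2f2, Caf1-105, pim, Cap-H2, eIF5B, shg, spi, gbb, tkv, Egfr, dany, twe, ProtB, snky, alphaTub85E, Dhc93AB, ttm50, Dcp-1, esg, hh and tj lie outside this rule and were chosen after their values were seen. Alternatives covered the pseudocount, the filter, the normalization, the variance model, the arrays in the fit, single arrays left out, the replicate number as a block and the choice of probe set.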

Additional observations from a re-analysis of the deposited data

Results flagged for a closer look

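In 12 of the 450 groups of 5 arrays tested, or 2.67%, a single array lay apart from the other 4 by Dixon's criterion, which chance alone gives in about 1 of 20 groups. The groups tested included more than those of the 189 genes named. On bgcn array 1, zpg was low at 899.2, fest high at 31.7, dom high at 877.2, spi low at 208.8 and Yp3 low at 61.0. On bgcn array 2, Pglym87 was high at 11.2 and put high at 532.2, and on bgcn array 5 ntc was low at 51.6. On the wild-type arrays, mod at 41.9 and tkv at 91.3 were low on array 3, and dany at 54.2 and Tektin-C at 281.3 were low on array 2. No named gene changed its call when its array was left out.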

How the results depend on the processing

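Among the scalings, ribosomal centring decided most directions of moderate size, while quantile normalization and median centring turned the sign of no list median. The ribosomal reference itself rose on the deposited scale. Its array medians were 10.40 to 10.68 in wild-type and spread more widely in bgcn, at 12.18 to 13.24. With ribosomal centring 190 probe sets were higher and 8508 lower, and 3 paralog pairs were opposed. By list, with that centring, 7 were higher among the ribosome biogenesis and nucleolus genes, 5 were higher among the piRNA pathway genes and DNA replication genes, 4 were higher among the cytosolic ribosomal protein genes, 3 were higher among the early germline and transit-amplification genes, ribosomal protein paralogs, Polycomb group genes and chromatin remodellers, 2 were higher among the mitosis and cytokinesis genes, general oxidative phosphorylation subunits and translation initiation factors, 1 was higher among the aminoacyl-tRNA synthetases, spliceosome core genes, BMP and TGF-beta genes and hemocyte markers and 0 were higher among the general proteasome subunits, glycolytic genes, tubulin isotypes, individualization and caspase genes, JAK-STAT pathway genes, EGFR pathway genes, hedgehog pathway genes, cyst cell lineage markers, pigment cell markers, muscle sheath markers, accessory gland and ejaculatory duct markers and fat body and antimicrobial genes. Medians that turned below 0 were those of early germline and transit-amplification genes at -0.46, piRNA pathway genes at -0.64, DNA replication genes at -0.27, mitosis and cytokinesis genes at -1.22, general proteasome subunits at -1.23, general oxidative phosphorylation subunits at -1.59, glycolytic genes at -0.68, cytosolic ribosomal protein genes at -0.19, ribosomal protein paralogs at -0.14, translation initiation factors at -0.80, aminoacyl-tRNA synthetases at -0.44, individualization and caspase genes at -1.85, Polycomb group genes at -0.78, chromatin remodellers at -0.37, spliceosome core genes at -0.29, JAK-STAT pathway genes at -1.57, EGFR pathway genes at -1.10, hedgehog pathway genes at -1.71, BMP and TGF-beta genes at -0.47, cyst cell lineage markers at -0.72, pigment cell markers at -1.45, muscle sheath markers at -0.94, accessory gland and ejaculatory duct markers at -1.57, hemocyte markers at -0.33 and fat body and antimicrobial genes at -1.43. Of the hub markers 5 were then lower, bgcn stood at -2.73 and upd1 at -2.32, both past the threshold. The call of lower for upd1 follows from the common shift, since its signal was below 18.8 on every array of both genotypes. It shows no measured fall, and the shift enters the other hub calls in the same way. Named genes that turned below 0 were mei-P26 -2.15, Cap-H2 -1.46, shg -1.86, spi -0.60, gbb -0.12, tkv -0.26, Egfr -2.10, E2f2 -2.23, Caf1-105 -2.20, dany -2.10, ord -0.011, c(3)G -0.29, betaTub97EF -0.57, Dhc93AB -2.13, Rpt4 -0.69, Prosbeta4 -0.27, Prosalpha6 -0.61, COX4 -0.64, COX5B -0.16, Hsp60A -1.92, ttm50 -1.70, Marf -0.0197, eIF3f2 -2.04, eIF4E1 -1.15, Ran -1.27, Ntf-2 -1.47, TfIIA-S -0.22, TfIIA-S-2 -0.38, Taf5 -1.14, Taf4 -0.33, Taf12 -1.10, mip130 -1.11, mip120 -0.20, apt -0.12, edl -0.33, rdx -0.042, zfh1 -0.12, Nrt -0.13, Prm -0.25, Gld -0.53, Acp32CD -0.56, Hml -0.0495, Drs -0.10, Yp3 -0.79 and car -1.12, in log2 units. Another 24 named genes kept a positive change but no longer passed.

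The other settings changed few calls but moved many sizes. Of the 36 list medians, 24 moved by more than the spread between arrays with median centring, 25 with no pseudocount, 17 and 25 with the smaller and the larger pseudocount, 6 with quantile normalization, and 10 without bgcn arrays 1 and 2, where 1 more turned sign. The largest shift was -2.90 with no pseudocount. With the mean over a gene's probe sets, 13 named genes moved and 1, vkg, turned sign. eIF5B passed with median centring and shg with array weights, and each also without some single arrays. The block of replicate numbers in the fit left 7251 probe sets changed, 4912 higher and 2339 lower, against 7277. Same-numbered arrays of the genotypes deviated together by a correlation of only -0.09 to 0.05, so the numbers were not taken as pairs. Over the other alternatives apart from ribosomal centring, the stricter filter included, 6048 to 7707 probe sets changed. Leaving out 1 array gave 7056 to 7318 changed, and 32 to 36 opposed pairs. bgcn passed at -0.74 with quantile normalization and with median centring, and without 1 array ranged from -0.64 to -0.39. Hub markers that fell numbered 2 with either of these settings and 1 to 2 without 1 array. Accessory gland markers that rose numbered 2 to 8 without 1 array, muscle markers 7 with the stricter filter, and fat body genes 3 with array weights. The tubulin median turned to 0.12 with array weights, 0.085 without bgcn arrays 1 and 2 and 0.14 without bgcn array 1, and vkg turned to 0.27 as the mean over its probe sets. No scaling that fixes RNA per cell was possible with these values, 5 arrays a group limit the precision, and dim genes have compressed changes.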
